A study of Mus musculus with 8 samples.

Results

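A set of 10 genes of mitochondrial fusion, fission and mitophagy were followed by RNA-Seq in brown adipose tissue (BAT) of C57BL/6 mice. They were chosen by symbol, as Opa1, Mfn1, Mfn2, Oma1, Yme1l1, Dnm1l, Fis1, Mff, Pink1 and Bnip3, and all 10 were found among the 49452 genes of the table. The 8 libraries formed 4 groups of 2. Mice exposed to 22 °C (replicates 4 and 7) were compared with mice in 24 h of 4 °C exposure (replicates 2 and 11), and mice on the normal chow diet (NCD, replicates 6 and 8) with mice on the high-fat diet (HFD, replicates 2 and 6). All mice were male according to the study. The animals of the cold experiment were 10 to 12 weeks old, those in the cold spent 20 h at 4 °C and were then fasted for 4 h, and whether the mice at 22 °C were fasted as well is not clear from the methods. The animals of the diet experiment were 32 weeks old after 28 weeks on their diet. For the control food the labels give normal chow and the study a diet matched in micronutrients. The labels give no genetic alteration for any group. The question put to the genes was whether their RNA differed after cold or after high-fat feeding.

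Mitochondria fuse and divide continuously. The large GTPases MFN1 and MFN2 join the outer membranes and OPA1 joins the inner membranes, and OPA1 is cleaved by the inner membrane proteases OMA1 and YME1L1. Division is carried out by the dynamin-related GTPase DRP1, the product of Dnm1l, which is recruited to the outer membrane by receptors such as MFF, whereas FIS1 is an outer membrane protein with a debated part in division. Damaged or surplus mitochondria are removed by mitophagy, in which the kinase PINK1 marks depolarised mitochondria and BNIP3 acts as a receptor that binds the autophagy machinery and is a well-known target of hypoxia-inducible factor. In BAT, brown adipocytes are packed with mitochondria, and adrenergic stimulation is known to fragment them.

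The unit was FPKM, fragments per kilobase of transcript scaled to the mapped fragments of the library, which allows levels to be compared between genes per length. Each library measured 23543 to 32686 genes above 0. A single fragment on a transcript of 2000 bases was worth 0.00438 to 0.00604 FPKM, and the 10 genes rested on about 384 to 58258 fragments in a library, so counting error was small for all of them. The Pearson correlation across genes was 0.968 to 0.982 between the libraries of a group and reached 0.981 between groups. Within each group, 1 library held the satellite-related transcript Gm10800 at 447.4 to 15730 FPKM (22 °C replicate 4, 4 °C replicate 11, NCD replicate 8 and HFD replicate 2, called satellite-high here) and the other at 0.0998 to 4.13 FPKM (satellite-low). X-linked genes were listed at 0 in 3 libraries, both of 22 °C and NCD replicate 6. The 4 °C libraries held 781 and 840 X-linked genes above 0, so this listing separates the groups of the cold comparison. All 10 genes lie on autosomes and have values in every library. Whether the listing goes with another difference in how these libraries were processed or scaled was not tested. The 10 brown adipocyte markers, among them Ucp1 and Cidea, were above 0 in every library. The library names in the labels carried 2 prefixes whose meaning the labels do not give. The first prefix was on 5 libraries, those of the cold experiment and NCD replicate 6, and the other on the remaining 3 libraries of the diet experiment. The labels and the study give 2 replicates per condition and do not say whether each is a separate mouse, so p-values measure the spread between these samples.

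Sequences upstream of 3 of the genes are shown as the results turned mainly on them. Bnip3 had the highest level and the widest range. In the values as deposited, Opa1 was the gene whose groups stood apart in both experiments, and Fis1 had the largest difference with cold. RefSeq promoter windows (GRCm38.p6, 250 bases before and 50 after the transcription start) were matched for 10 of 10 genes, and the 250 bases before the start are printed 5′ to 3′ on the strand of the gene. Capitals mark the matches to 1 searched motif, on either strand. In Bnip3, at chr7:138909507-138909756 on the minus strand, they mark the palindrome CACGTG, which holds the motif ACGTG once on each strand with 4 bases shared and begins 108 bases before the start. ACGTG is a form of the core of the element bound by hypoxia-inducible factors, and other forms were not searched. In Opa1, at chr16:29579084-29579333 on the plus strand, they mark TGCGCA, a palindrome that is found in the recognition site of the nuclear respiratory factor NRF1, 54 bases before the start. In Fis1, at chr5:136953025-136953274 on the plus strand, they mark GGGCGG, the GC box, which lies on the other strand at 205 and 154 bases before the start.
Bnip3: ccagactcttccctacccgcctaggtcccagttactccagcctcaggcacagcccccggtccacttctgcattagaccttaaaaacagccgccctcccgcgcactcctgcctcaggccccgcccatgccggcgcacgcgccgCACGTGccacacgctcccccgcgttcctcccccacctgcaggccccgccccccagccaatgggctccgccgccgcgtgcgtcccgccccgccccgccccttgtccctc
Opa1: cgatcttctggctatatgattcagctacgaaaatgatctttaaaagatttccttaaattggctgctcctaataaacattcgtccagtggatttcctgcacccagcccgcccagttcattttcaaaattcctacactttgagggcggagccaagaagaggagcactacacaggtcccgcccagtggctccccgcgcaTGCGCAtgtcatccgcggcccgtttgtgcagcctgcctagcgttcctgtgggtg
Fis1: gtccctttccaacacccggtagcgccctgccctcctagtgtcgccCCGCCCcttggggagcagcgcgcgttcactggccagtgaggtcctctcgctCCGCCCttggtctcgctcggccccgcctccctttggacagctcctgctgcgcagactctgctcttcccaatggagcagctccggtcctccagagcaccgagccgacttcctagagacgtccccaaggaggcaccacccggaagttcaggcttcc

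Over the 32851 windows of the same 300 bases, ACGTG was present in 19.6%, TGCGCA in 7.76%, GGGCGG in 35.7%, CCAAT in 37.4% and TGACGTCA, the cAMP response element, in 1.79%. Among the 10 genes, ACGTG was found for Mfn2 and Bnip3, TGCGCA for Opa1, Fis1 and Pink1, GGGCGG for 9 genes (not for Mfn2) and CCAAT for 7, namely Opa1, Mfn1, Yme1l1, Dnm1l, Fis1, Mff and Bnip3. TGACGTCA was found for 0 of 10. These matches are descriptions of letters in a window and not of binding.

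Bnip3 was the most abundant of the 10 genes at a mean of 180.6 FPKM over the 8 libraries, and the second mitophagy gene, Pink1, followed at 68.8 FPKM. Both mitophagy genes stood above the next gene in the order in 8 of 8 libraries. The fission genes Mff (39.5 FPKM) and Fis1 (38.8 FPKM) came next and could not be ordered, since Mff was above Fis1 in 4 of 8 libraries. Fis1 was above Opa1 (32.7 FPKM) in 5 of 8 libraries, Opa1 above Mfn2 (23.3 FPKM) in 7 of 8, and Mfn2 above Yme1l1 (16.6 FPKM) in 6 of 8, so these neighbours overlapped as well. Yme1l1, Mfn1 (11.7 FPKM), Dnm1l (7.50 FPKM) and Oma1 (3.22 FPKM) followed in this order in every library. Dnm1l, which encodes the GTPase that performs division, was thus below both of the outer membrane proteins Mff and Fis1, and Oma1 was the least abundant. Over the 8 libraries, Bnip3 spanned a 2.74-fold range and Fis1 a 2.41-fold range, whereas Opa1, Dnm1l and Yme1l1 stayed within 1.47-, 1.48- and 1.49-fold.

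**Figure D1:**
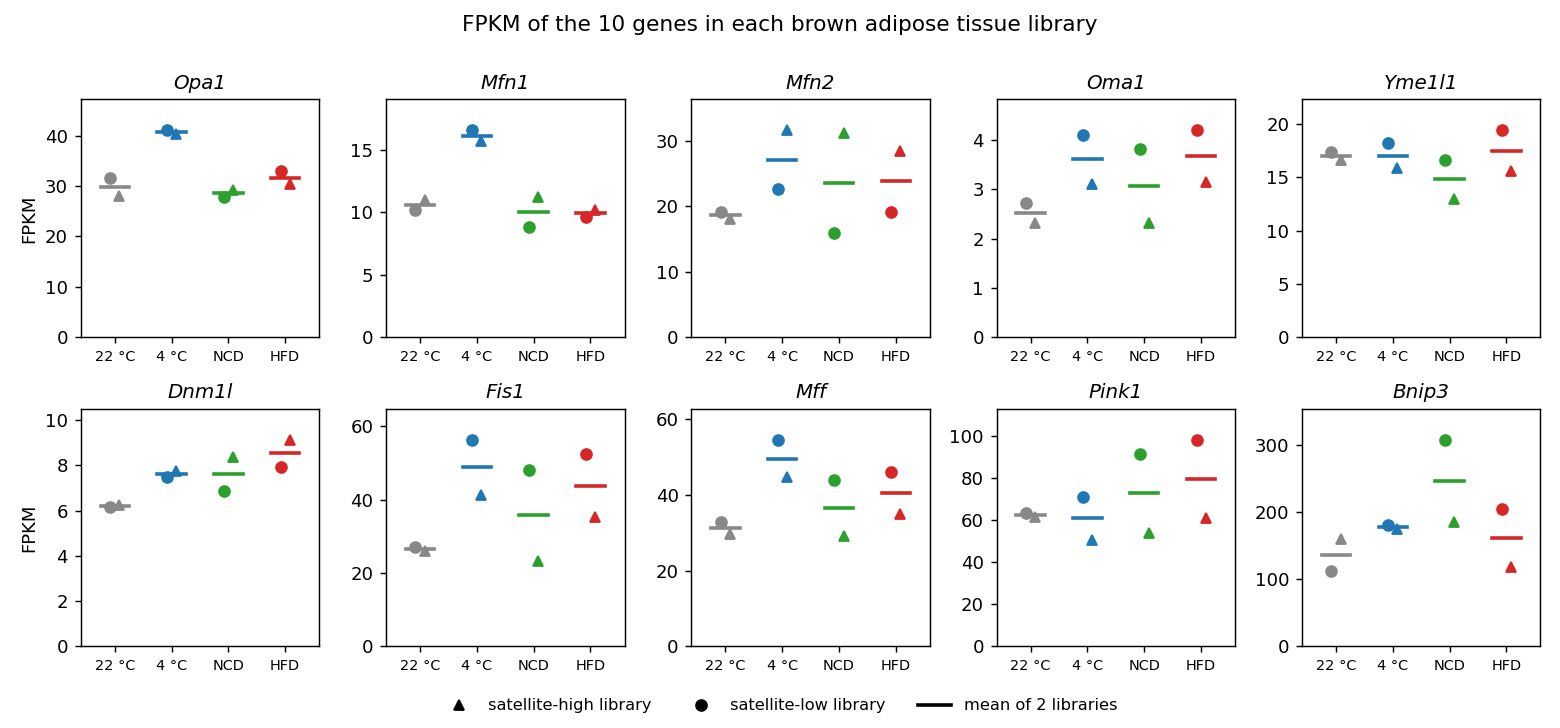
FPKM (linear y axis from 0) of each of the 10 genes in the 8 libraries, by group on the x axis, with triangles for satellite-high and circles for satellite-low libraries and a bar at the mean of the 2 libraries. Opa1 at 4 °C (40.3 and 41.0 FPKM) lies above all other groups, and the 2 libraries of NCD and of HFD lie far apart for Fis1, Pink1 and Bnip3.

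After 24 h at 4 °C, no gene of the 10 passed the test, although most had their higher values in the cold. In limma on log2(FPKM + 1), 0 of 10 genes were called at an adjusted p under 0.05, against 1.81% of the 17470 genes tested. Before adjustment, 3 had a p under 0.05, namely Fis1 (0.015), Mfn1 (0.0259) and Mff (0.0306), and so had 24.5% of all genes tested. The groups did not overlap and 4 °C was higher for 8 of 10 genes, and the same held for 37.9% of all genes tested and for 46.9% of genes averaging 1 FPKM or more. No gene of the 10 was lower without overlap, beside 20.6% of all genes tested. The median log2 difference was 0.42 over the 10 genes and 0.21 over all genes of at least 1 FPKM. Since the tissue was measured in bulk, a change in the share of a cell type and a change in RNA per cell cannot be told apart here or in the diet comparison.

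Among the fusion genes, Opa1 was at 28.03 and 31.64 FPKM at 22 °C (replicates 4 and 7) and at 41.0 and 40.3 FPKM at 4 °C (replicates 2 and 11). Its log2 difference was 0.44 ± 0.20 (SE, n = 2 against 2; 95% interval −0.07 to 0.95; limma adjusted p = 0.254). Both cold libraries lay above both 22 °C libraries, by more than the gap within either group. Mfn1 was at 11.01 and 10.2 FPKM at 22 °C and at 16.5 and 15.7 FPKM at 4 °C, a log2 difference of 0.56 (95% interval 0.10 to 1.02; limma adjusted p = 0.151). The cold values again stood clear of the others. Mfn2 was at 18.1 and 19.2 FPKM at 22 °C and at 22.6 and 31.6 FPKM at 4 °C, with a log2 difference of 0.50 (95% interval −0.10 to 1.09; limma adjusted p = 0.264). Here the 2 cold libraries differed from each other more than the lower one differed from 22 °C.

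Of the inner membrane proteases that cut OPA1, Oma1 was at 2.33 and 2.73 FPKM at 22 °C and at 4.10 and 3.11 FPKM at 4 °C (log2 difference 0.38, 95% interval −0.12 to 0.88, limma adjusted p = 0.302). Yme1l1 was at 16.7 and 17.4 FPKM at 22 °C and at 18.2 and 15.9 FPKM at 4 °C. The cold values of Yme1l1 lay on both sides of the 22 °C values, with a log2 difference of −0.004 (95% interval −0.49 to 0.48; limma adjusted p = 0.994).

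For fission, Fis1 had the largest difference of the 10 genes in the values as deposited. It was at 26.1 and 27.1 FPKM at 22 °C and at 56.3 and 41.4 FPKM at 4 °C. The log2 difference of Fis1 was 0.84 ± 0.24 (SE; 95% interval 0.24 to 1.44; limma adjusted p = 0.117). The 22 °C libraries were close together, and the satellite-low cold library was the highest of the 4. Mff was at 29.7 and 32.9 FPKM at 22 °C and at 54.6 and 44.7 FPKM at 4 °C (log2 difference 0.64, 95% interval 0.09 to 1.199, limma adjusted p = 0.163). The 4 libraries took the same order for Mff as for Fis1, from 22 °C replicate 4 at the bottom to 4 °C replicate 2 at the top. Dnm1l was at 6.23 and 6.16 FPKM at 22 °C and at 7.49 and 7.76 FPKM at 4 °C, a log2 difference of 0.26 (95% interval −0.18 to 0.70; limma adjusted p = 0.405), small but with little spread within each group.

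For mitophagy, Pink1 was at 61.2 and 63.4 FPKM at 22 °C and at 70.9 and 50.5 FPKM at 4 °C. The cold libraries lay above and below the 22 °C libraries, and the log2 difference was −0.06 (95% interval −0.70 to 0.59; limma adjusted p = 0.916). Bnip3 was at 159.9 and 112.1 FPKM at 22 °C and at 181.5 and 175.3 FPKM at 4 °C, a log2 difference of 0.41 (95% interval −0.31 to 1.13; limma adjusted p = 0.422). Its cold libraries were close to each other, and its 22 °C libraries far apart.

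**Figure D2:**
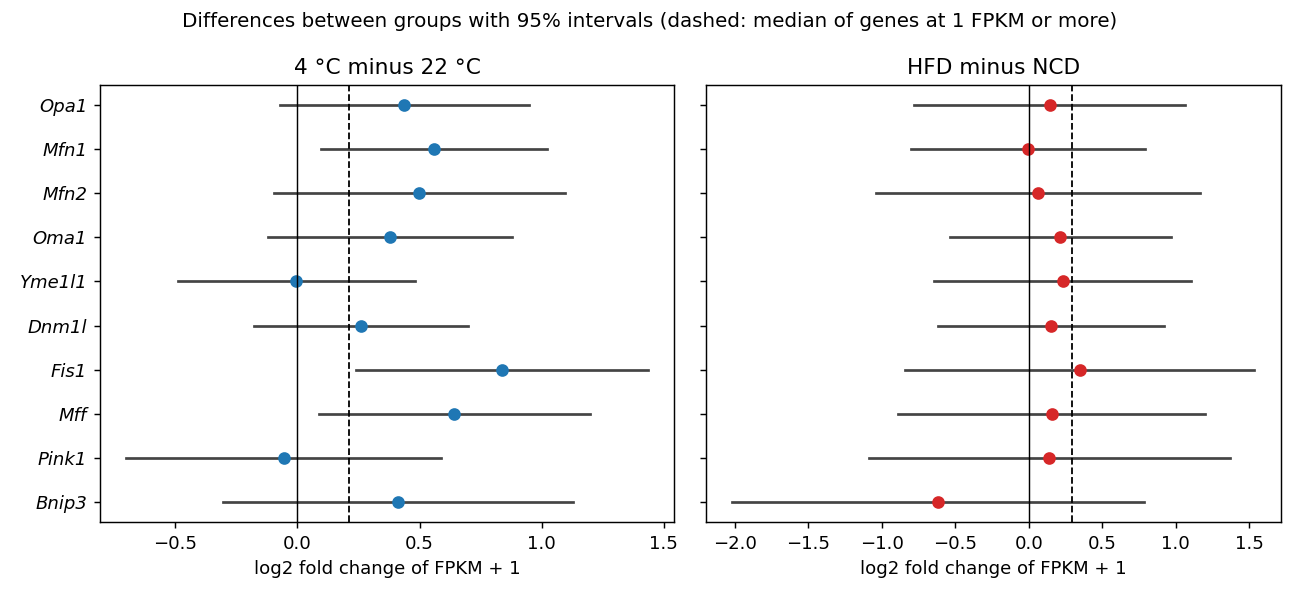
Log2 difference of FPKM + 1 (x axis) with its 95% interval from limma for the 10 genes, 4 °C minus 22 °C on the left and HFD minus NCD on the right, with a dashed line at the median of genes of at least 1 FPKM (0.21 and 0.29). The cold intervals of Mfn1, Fis1 and Mff lie above 0 before adjustment, and every diet interval spans 0.

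The direction of several of these differences depended on how the libraries were scaled. With the libraries centred on their medians, the groups of the cold comparison did not overlap for 4 genes that were higher (Mfn1, Oma1, Fis1 and Mff) and 2 that were lower (Yme1l1 and Pink1), while 29.6% of genes of at least 1 FPKM were higher and 34.6% lower. With the libraries brought to the same autosomal sum, 0 of 10 genes were higher and 1, Pink1, was lower without overlap, beside 14.5% and 22.6%. The median over the 10 genes went from 0.42 as deposited to 0.17 with median centring, 0.03 with quantile normalisation, 0.03 with the autosomal sum and 0.02 with a sum that left out mitochondrial genes, rRNA genes and Ucp1. The median over all genes of at least 1 FPKM went from 0.21 to −0.05, −0.04, −0.14 and −0.15 under the same scalings, so the 10 genes stayed above it by 0.07 to 0.21 in each case. Mfn1, Mfn2, Oma1, Fis1 and Mff kept a positive sign under the 5 scalings, Yme1l1 and Pink1 a negative one, and Opa1, Dnm1l and Bnip3 took both. The positive values shrank, with quantile normalisation to 0.335 for Fis1 and 0.131 for Mff. With the sum without mitochondrial genes, rRNA genes and Ucp1 they shrank to 0.145 for Mfn1, 0.073 for Mfn2 and 0.045 for Oma1. Pink1, at −0.606 with quantile normalisation, then had a larger difference than Fis1.

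**Figure D3:**
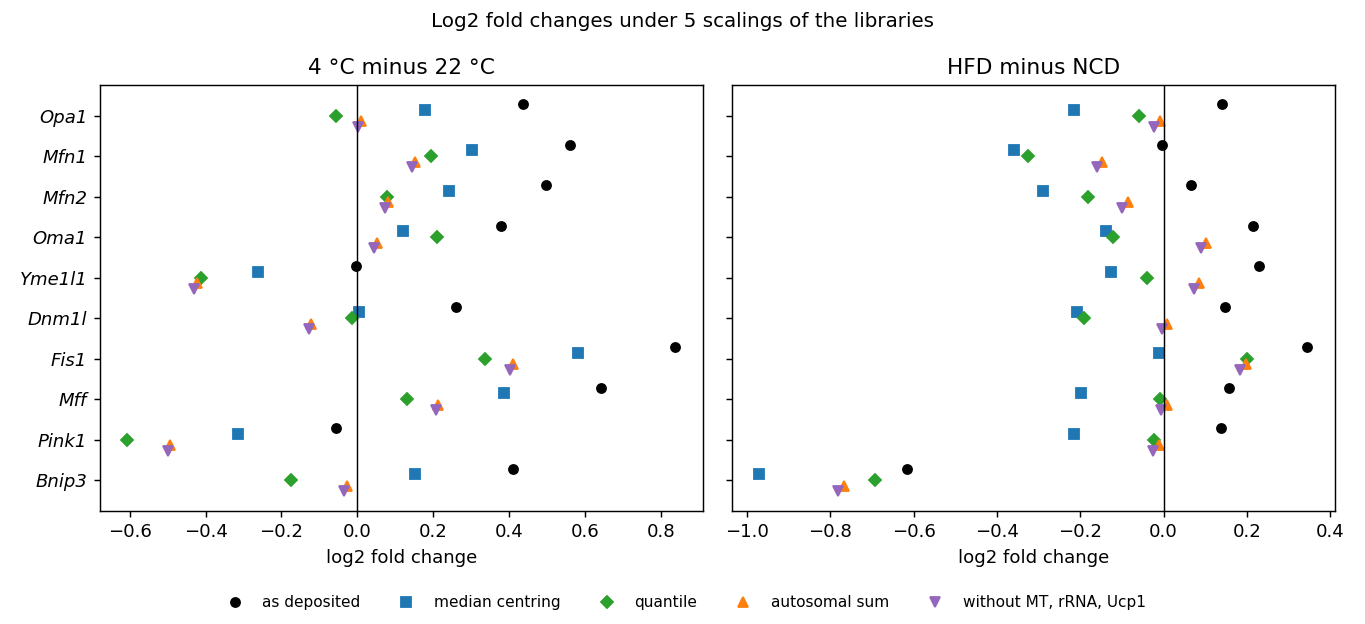
Log2 difference (x axis) of each gene in the cold comparison (left) and the diet comparison (right) under 5 scalings of the libraries, 1 symbol per scaling. In the cold comparison the symbols of Fis1 and Mff all lie above 0 and those of Pink1 below 0, and in the diet comparison those of Bnip3 all lie below 0.

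In HFD against NCD, differences were small beside the spread between libraries, and Bnip3 was the gene with the largest. In limma, 0 of 10 genes were called, against 0.0855% of the 17535 genes tested, and 0 of 10 had an unadjusted p under 0.05, beside 14.4% of all genes tested. The 2 groups did not overlap for 1 gene, Opa1, which was higher in HFD, beside 39.9% of all genes tested, and for 0 genes that were lower, beside 5.8%. The median log2 difference was 0.14 over the 10 genes and 0.29 over all genes of at least 1 FPKM.

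Bnip3 was at 307.6 and 185.7 FPKM in NCD (replicates 6 and 8) and at 118.7 and 204.1 FPKM in HFD (replicates 2 and 6). Its log2 difference was −0.62 ± 0.60 (SE, n = 2 against 2; 95% interval −2.02 to 0.79; limma adjusted p = 0.689). The groups overlapped, because the satellite-low HFD library was above the satellite-high NCD library. Between the satellite-high libraries alone the log2 difference was −0.64 and between the satellite-low libraries −0.59, each from 1 library per group and without a test. With library type as a covariate the adjusted p of limma was 0.0914, in a fit that called 16.9% of all genes. With median centring as well, a setting added after the data had been seen, the log2 difference was −0.97 at an adjusted p of 0.0163, where 32.6% of all genes were called. Over all alternatives the adjusted p of Bnip3 ranged from 0.0163 to 1. The 3 libraries that share a name prefix leave out NCD replicate 6, and among them the log2 difference of Bnip3 was −0.25 (limma adjusted p = 0.884). Without HFD replicate 2 it was −0.23, and without NCD replicate 8 or HFD replicate 6 it was −0.978 or −1.004, so the size of the difference depended on each of the 4 libraries.

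Pink1 was at 91.1 and 53.9 FPKM in NCD and at 61.0 and 97.99 FPKM in HFD, so that each group held 1 high and 1 low library. Its log2 difference was 0.14 (95% interval −1.09 to 1.37; limma adjusted p = 0.928). Opa1 was at 27.9 and 29.3 FPKM in NCD and at 30.4 and 32.9 FPKM in HFD, a log2 difference of 0.14 (95% interval −0.78 to 1.06; limma adjusted p = 0.901). Both HFD libraries lay above both NCD libraries, by a gap smaller than that within either diet.

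Fis1 was at 48.2 and 23.3 FPKM in NCD and at 35.2 and 52.4 FPKM in HFD, with a log2 difference of 0.34 (95% interval −0.84 to 1.53). Mff was at 43.9 and 29.3 FPKM in NCD and at 34.9 and 46.0 FPKM in HFD, with a log2 difference of 0.16. Dnm1l was at 6.88 and 8.38 FPKM in NCD and at 9.13 and 7.95 FPKM in HFD, with a log2 difference of 0.15. For these 3 fission genes the gap within a group was as large as the gap between groups or larger.

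Mfn2 was at 15.9 and 31.2 FPKM in NCD and at 28.5 and 19.1 FPKM in HFD, and Mfn1 at 8.80 and 11.2 FPKM in NCD and at 10.2 and 9.61 FPKM in HFD. The log2 differences of these mitofusins were 0.06 and −0.004. Oma1 was at 3.81 and 2.33 FPKM in NCD and at 3.15 and 4.20 FPKM in HFD, and Yme1l1 at 16.6 and 13.02 FPKM in NCD and at 15.6 and 19.4 FPKM in HFD. Their log2 differences were 0.22 and 0.23. Apart from Bnip3, the limma adjusted p in the diet comparison was between 0.799 and 0.998 for each gene, and the intervals reach beyond 0.5 in both directions for every one, so changes of that size were not detectable here. Among the 3 libraries with the same name prefix, the log2 differences ran from −0.40 (Mfn2) to 0.85 (Fis1), with a lowest limma adjusted p of 0.503.

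The diet differences shifted with the scaling as well. The number of the 10 genes with a positive difference was 8 as deposited, 0 with median centring, 1 with quantile normalisation, 5 with the autosomal sum and 3 with the sum without mitochondrial genes, rRNA genes and Ucp1. Their median went from 0.14 to −0.21, −0.09, −0.001 and −0.01, and that of all genes of at least 1 FPKM from 0.29 to −0.06, −0.008, 0.16 and 0.15, so the 10 genes stood below it in each case. With median centring, Bnip3, Mff, Oma1 and Yme1l1 were lower in HFD without overlap and 0 genes were higher, beside 23.6% and 16.9% of genes of at least 1 FPKM. With the autosomal sum Bnip3 was lower and Oma1 higher without overlap, beside 11.4% and 36.4%. Bnip3 and Mfn1 were negative under all 5 scalings, and the other 8 genes, Opa1 among them, took both signs.

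A ratio within 1 library is not altered by a factor common to all its genes, though quantile normalisation can alter it, and 5 ratios between genes of related roles were compared, in 10 tests. With 2 against 2 libraries, the two-sided exact permutation test cannot go below 0.333, so none of the 10 can pass and the ratios are a description. In the diet experiment the ratio of Bnip3 to Pink1 was 3.38 and 3.44 in NCD and 1.95 and 2.08 in HFD, a log2 difference of −0.76 (exact permutation p = 0.333). The libraries of each diet were close together although Bnip3 and Pink1 themselves differed widely between them. In the cold experiment the same ratio was 2.61 and 1.77 at 22 °C and 2.56 and 3.47 at 4 °C, and the groups overlapped.

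The ratio of Oma1 to Yme1l1 was 0.14 and 0.157 at 22 °C and 0.226 and 0.196 at 4 °C, a log2 difference of 0.51 (exact permutation p = 0.333), so that the stress-activated protease was higher relative to Yme1l1 in both cold libraries. The ratio of Mff to Fis1 was 1.14 and 1.22 at 22 °C and 0.969 and 1.08 at 4 °C, a log2 difference of −0.20, which was −0.076 between the satellite-high libraries and −0.327 between the satellite-low ones. The ratio of Opa1 to Dnm1l, fusion to fission, was 4.5 and 5.13 at 22 °C and 5.48 and 5.19 at 4 °C, a narrow separation, and 3.32 to 4.14 in the diet experiment. The ratio of Mfn2 to Mfn1 was between 1.37 and 2.8 and overlapped between the groups of both experiments. In the diet experiment, the ratios other than Bnip3 to Pink1 overlapped as well. Quantile normalisation was tried after the data had been seen. It was applied to log2(FPKM + 1), so its starting values can differ from the ratio differences above, which had no pseudocount. With it, the cold log2 difference of Opa1 less that of Dnm1l turned from 0.18 to −0.04. That of Oma1 less that of Yme1l1 went from 0.38 to 0.62. The diet log2 difference of Bnip3 less that of Pink1 went from −0.76 to −0.67, and the cold one of Mff less that of Fis1 from −0.19 to −0.20.

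**Figure D4:**
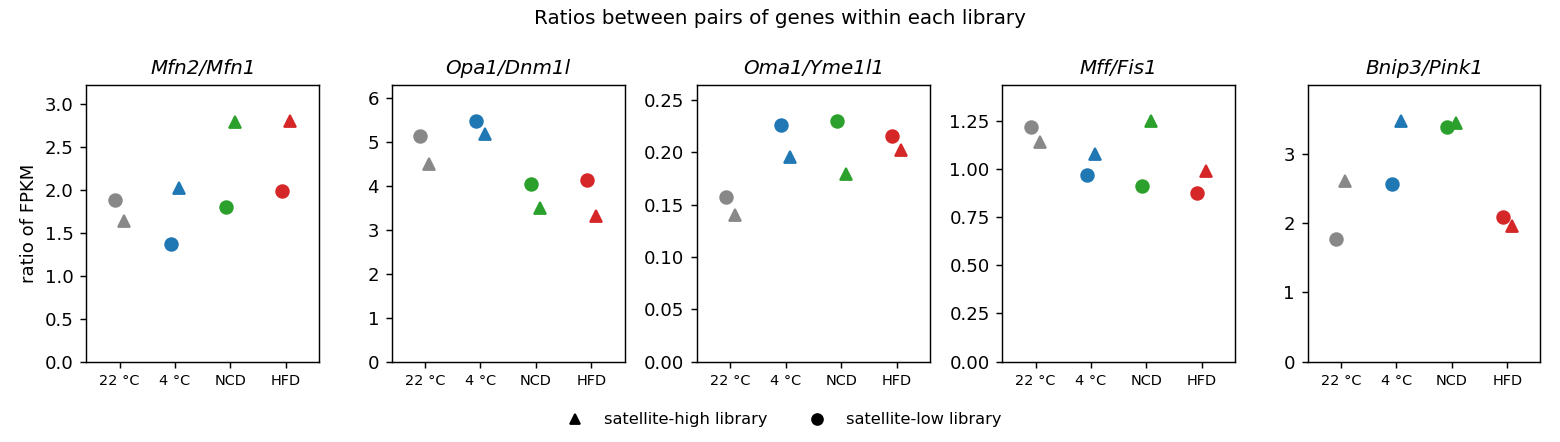
Ratio of FPKM between pairs of genes (linear y axis from 0) in each of the 8 libraries by group, with triangles for satellite-high and circles for satellite-low libraries. The 2 NCD libraries lie at 3.38 and 3.44 and the 2 HFD libraries at 1.95 and 2.08 for Bnip3 to Pink1.

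The values of the genes were also set side by side by library type, the satellite-high against the satellite-low library of each group. Fis1, Mff, Pink1, Oma1 and Yme1l1 were lower in the satellite-high library in 4 of 4 groups. Their mean log2 differences were −0.52, −0.35, −0.49, −0.33 and −0.22. Opa1 (−0.06) and Bnip3 (−0.26) were lower in 3 of 4 groups. In contrast, Dnm1l was higher in 4 of 4 groups (0.12), and Mfn2 (0.47) and Mfn1 (0.10) in 3 of 4. In a limma fit of all 8 libraries with the group as a term, 0 of 10 genes were called for library type, against 0.0529% of 18894 genes, and 5 had an unadjusted p under 0.05, beside 26% of all genes. Of genes averaging 1 FPKM or more over the 8 libraries, 38.4% were lower in the satellite-high library in all 4 groups and 4.43% higher. Each group held 1 library of each type, so the type is balanced over both comparisons. Its part in the spread within the groups was not tested further.

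**Figure D5:**
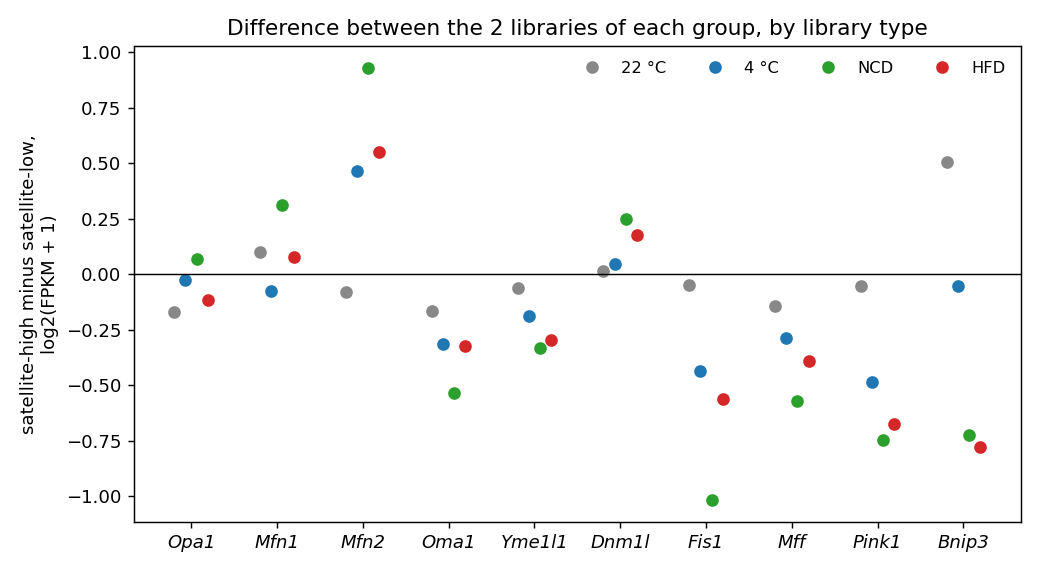
Difference between the satellite-high and the satellite-low library of each group on the log2(FPKM + 1) scale (y axis) for the 10 genes (x axis), 1 point per group. The 4 points of Fis1, Mff, Pink1, Oma1 and Yme1l1 lie below 0, and those of Dnm1l above 0.

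Markers of other cells stood at different levels in the groups. The 11 skeletal muscle markers in the table summed to 502 and 103 FPKM at 22 °C, 3960 and 1790 FPKM at 4 °C, 495 and 1390 FPKM in NCD, and 167 and 14.4 FPKM in HFD. All 11 were higher at 4 °C without overlap, beside 37.9% of all genes tested, and 10 of 11 were lower in HFD, beside 5.8%. The 8 macrophage markers summed to 60.3 to 142 FPKM in the cold experiment. They summed to 47 to 124 FPKM in NCD and 244 to 283 FPKM in HFD. All 8 were higher in HFD without overlap, beside 39.9% of all genes tested. No muscle or macrophage marker passed the adjusted threshold in either comparison, and none was at 0 in any library. The 8 lymphoid markers summed to at most 1.51 FPKM. The brown adipocyte markers summed to 7130 and 7500 FPKM at 22 °C, 17700 and 15000 FPKM at 4 °C, 15000 and 8480 FPKM in NCD, and 9160 and 13100 FPKM in HFD. Without overlap, 7 of the 10 were higher and 2 lower at 4 °C, beside 37.9% and 20.6% of all genes tested. Elovl3 and Ppargc1a passed the adjusted threshold and rose, and the 2 lower ones, Adipoq (log2 difference −0.78) and Prdm16 (−0.68), did not pass it. In HFD 2 were higher without overlap, Ppargc1a (0.40) and Prdm16 (0.14), and 2 lower, Elovl3 (−3.14) and Cidea (−1.07), and none passed. Of all genes tested, 39.9% were higher and 5.8% lower in HFD without overlap. The 3 erythroid markers summed to 67.8 and 48.6 FPKM at 22 °C, 109 and 26.8 FPKM at 4 °C, 156 and 95.1 FPKM in NCD, and 188 and 384 FPKM in HFD. The 5 endothelial markers summed to 68.8 and 67.2 FPKM at 22 °C, 68.4 and 102 FPKM at 4 °C, 48.4 and 55.8 FPKM in NCD, and 82.6 and 77 FPKM in HFD. The sums of both were thus higher in both HFD libraries than in NCD, and their part in the values of the 10 genes was not tested. With all 8 libraries in 1 fit and the mean muscle marker level as a covariate, the log2 difference in the cold went up to 1.46 for Fis1, 1.08 for Mff, 0.887 for Bnip3, 0.768 for Oma1 and 0.53 for Pink1 and down to 0.339 for Mfn1, 0.068 for Dnm1l and −0.025 for Mfn2. In the diet comparison it went to −1.107 for Bnip3 and to 0.605 for Mfn2, and 0 of 10 genes were called in either comparison. The muscle marker sum was higher in the satellite-high library at 22 °C, in NCD and in HFD, and lower at 4 °C. Muscle level and library type therefore cannot be told apart well in this fit. Mitochondrial genes of this kind are expressed in muscle too, and the part of muscle RNA in their values was not tested beyond this fit.

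Other genes of the same processes were followed as 4 lists, and a list of genes that mark mitochondrial content was set beside them. In the cold comparison 1 gene of the mitophagy list was called and 0 of the other lists, beside 1.81% of all genes tested. Limma gave an unadjusted p under 0.05 for 9 of 15 genes of fusion and inner membrane shape and 4 of 10 of fission. The counts were 6 of 19 for mitophagy, 3 of 6 for transport and 3 of 11 for mitochondrial content, beside 24.5% of all genes. The called gene was Gabarapl1, which encodes an autophagosome protein of the ATG8 family that binds mitophagy receptors, and which rose at 4 °C. It was at 35.3 and 33.3 FPKM at 22 °C and at 128.3 and 102.6 FPKM at 4 °C, a log2 difference of 1.72 ± 0.23 (SE; limma adjusted p = 0.0442). Both cold libraries lay far above both 22 °C libraries, which were close together. The adjusted p went above 0.05 under several alternatives and without any 1 of the 4 libraries (0.0585 to 0.148), where the log2 difference was 1.556 to 1.874, and ranged from 0.000511 to 0.234 over all alternatives.

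Of 19 mitophagy genes tested, 14 were higher and 0 lower at 4 °C without overlap, with a median log2 difference of 0.48. Beside this and the counts that follow, 37.9% of all genes tested and 46.9% of those of at least 1 FPKM were higher without overlap. Park2, the ubiquitin ligase Parkin that acts downstream of PINK1, had the lowest value among them at −0.23 (adjusted p = 0.576). Of 15 genes of fusion and inner membrane shape, 13 were higher and 1 lower, with a median of 0.65. Letm1, an inner membrane protein of ion exchange, was highest at 2.04 (limma adjusted p = 0.0517), with 15.5 and 27.5 FPKM at 22 °C and 95.2 and 81.4 FPKM at 4 °C. Its adjusted p was under 0.05 in 10 of 18 alternatives and ranged from 0.000221 to 0.36. Msto1 was lowest at −0.29 (adjusted p = 0.359). Of 10 fission genes, 7 were higher and 0 lower, with a median of 0.46, from Mtfp1 at 0.995 (adjusted p = 0.1, and 0.0166 to 0.66 over the alternatives, under 0.05 in 3 of 18) to Spire1 at −0.06 (adjusted p = 0.892). All 6 transport genes were higher, with a median of 0.68, from the adaptor Trak2 at 1.08 (adjusted p = 0.0799, and 0.00851 to 0.549 over the alternatives, under 0.05 in 4 of 18) to the kinesin Kif1b at 0.40 (adjusted p = 0.287). Of the 11 content markers 8 were higher, with a median of 0.54, from the outer membrane channel Vdac1 at 0.89 (adjusted p = 0.183) to Sdha at 0.08 (adjusted p = 0.908). The content markers, at 0.54, were thus above the 10 genes, at 0.42, and both stood above the 0.21 of all genes of at least 1 FPKM. With the autosomal sum the medians were 0.25 for fusion and inner membrane shape, 0.04 for fission, where 11 genes were then tested, and 0.06 for mitophagy. They were 0.26 for transport and 0.10 for content, beside −0.14 for all genes of at least 1 FPKM. Without overlap, 6, 1, 6, 1 and 2 genes of these lists were then higher and 1, 3, 4, 0 and 0 lower, beside 14.5% and 22.6% of such genes.

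In the diet comparison 0 genes of the 5 lists were called by limma, beside 0.0855% of all genes tested, and 0 had an unadjusted p under 0.05, beside 14.4%. Alternatives were followed here only for the genes with the highest or lowest value of their list. Among these, limma with library type as a covariate called Dnm2 (adjusted p = 0.0223) and Trak2 (0.0285). That fit called 16.9% of all genes. Without a filter on low values, the limma adjusted p was 0.723 for Dnm2 and 0.739 for Trak2. The median log2 difference was 0.09 for fusion and inner membrane shape (from Opa3 at 0.46 to Minos1 at −0.25), 0.20 for fission (from Dnm2 at 0.82 to Spire1 at −0.32) and 0.08 for mitophagy (from Map1lc3a at 0.74 to Gabarapl1 at −0.54). It was 0.46 for transport (from Trak2 at 0.82 to Kif1b at −0.06) and −0.11 for content (from citrate synthase, Cs, at 0.41 to Sdha at −0.31). Over all genes of at least 1 FPKM it was 0.29. With median centring the 5 medians went to −0.27, −0.16, −0.27, 0.10 and −0.46, and that of all such genes to −0.06. The limma adjusted p of the genes named here with the highest or lowest value of their list was between 0.35 and 0.964. Gabarapl1, which rose in the cold, was at 101.4 and 66.1 FPKM in NCD and at 46.5 and 67.0 FPKM in HFD, and its diet groups overlapped. Spg7, Phb, Map1lc3b and Cox4i1 were not analysed here, and the X-linked Fundc1, Apool and Apoo were not tested because 3 libraries list X genes at 0.

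The genes lie on 7 autosomes in GRCm38. Opa1 spans chr16:29579334-29654884 and Dnm1l chr16:16312235-16359030, Mfn1 chr3:32529465-32579239 and Yme1l1 chr2:23156369-23199260. Mfn2 (chr4:147873599-147904704), Oma1 (chr4:103313812-103371868) and Pink1 (chr4:138313409-138326307) share a chromosome, and Fis1 is at chr5:136953275-136966234, Mff at chr1:82724890-82752394 and Bnip3 at chr7:138890836-138909519. Genes annotated within or across Mfn2 (Gm13156), Dnm1l (Gm49521), Mff (C430014B12Rik) and Bnip3 (Gm45507 and Gm18258) lie on the opposite strand, and Gm28941 lies on the same strand as Mff, as do the miRNA genes Mir7019 and Gm27646 as Pink1. The libraries were directional, but whether the counting used strand is not given in the sources used here, so reads of these genes may not be separated fully.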

How the data were processed

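RNA of BAT was depleted of rRNA, made into directional libraries and sequenced as paired ends by the authors, who mapped reads to GRCm38. The submitters' processing notes name TopHat2 2.0.10 and Cufflinks 2.2.1. The deposited table holds FPKM values computed by the authors, 1 per gene and library, without pooling. Columns of per-sample values left unused numbered 0.

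The 10 genes and all lists were chosen with earlier results of these data known. The authors' own tests used counts, which are not used here. Tests used limma 3.58.1 (R 4.3.3, eBayes with an intensity trend) on log2(FPKM + 1) in the 4 libraries of a comparison, over autosomal genes with at least 0.1 FPKM in at least 2 libraries. The pseudocount of 1 understates changes of low genes. P-values were two-sided and adjusted by Benjamini-Hochberg over all genes tested, and a gene was called at an adjusted p under 0.05. Tests were checked on simulated data with independent, equal noise for all genes and no library type effect. The check therefore does not cover shared differences between libraries such as those seen here. Ratios were tested by exact permutation with SciPy 1.17.1. All 10 genes are named, and from each list the called genes and the genes of at least 1 FPKM with the highest and the lowest difference. Satellite-high libraries have Gm10800 above 100 FPKM. Depth was read from the steps between low FPKM values, of which 97.5% to 98.6% were whole fragments within 0.1, and counting error is the only error it covers. Alternatives were other pseudocounts, filters, scalings, covariates, samples in the fit and leaving out each library.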

Additional observations from a re-analysis of the deposited data

How the results depend on the processing

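For the 10 genes, 0 of 180 tested cold values and 1 of 180 tested diet values under an alternative moved past the threshold. That was Bnip3 under median centring with library type as a covariate, which gave 1 called gene in the diet comparison. Signs turned in 15 of 200 cold and 49 of 200 diet values, the untested values within a library type included, and for the companion genes in 13 of 180 and 4 of 180. Companion genes gained a call in 17 cold values (Letm1 10, Trak2 4 and Mtfp1 3) and in 6 diet values (Dnm2 2, and Minos1, Spire1, Gabarapl1 and Trak2 1 each), and lost one in 10 cold values, all of Gabarapl1. In limma, library type as a covariate gave cold calls of Letm1 (adjusted p = 0.016, and 0.00686 with 8 libraries). It did the same for Mtfp1 (0.0438 and 0.019) and Trak2 (0.0405 and 0.02). In the diet comparison it gave calls of Dnm2 (0.0223 and 0.0489) and Trak2 (0.0285). Letm1 was also called in the cold without this covariate, with a pseudocount of 0.1 (0.0487) or a 1 FPKM filter (0.0412). The autosomal sum (0.0238) and the sum without mitochondrial genes, rRNA genes and Ucp1 (0.0241) called it too. So did keeping X, Y and mitochondrial genes (0.0291) and all 8 libraries in 1 fit (0.0382). Median centring gave cold calls of Letm1 (0.0168) and Trak2 (0.0352). Median centring and library type together gave those of Letm1 (0.000221), Mtfp1 (0.0166) and Trak2 (0.00851) in the cold. In the diet comparison, the 2 together gave calls of Minos1 (0.0404), Spire1 (0.0173) and Gabarapl1 (0.0145). The cause was not tested.

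The cold median over the 10 genes went from 0.424 to 0.166 with median centring, with or without library type, 0.032 with quantile normalisation, 0.030 with the autosomal sum and 0.024 with the sum without mitochondrial genes, rRNA genes and Ucp1. The diet median went from 0.144 to −0.210 with median centring, with or without library type, to −0.122 with the muscle score, and from 0.007 (without NCD replicate 8) to 0.274 (without HFD replicate 2) with 1 library left out. Log2 differences that turned in the cold were, with quantile normalisation, Opa1 −0.055, Dnm1l −0.013, Bnip3 −0.175, Kif1b −0.047 and Sdha −0.460. With the autosomal sum they were Dnm1l −0.122, Bnip3 −0.028, Kif1b −0.023 and Sdha −0.358, and without mitochondrial genes, rRNA genes and Ucp1 they were Dnm1l −0.128, Bnip3 −0.035, Kif1b −0.030 and Sdha −0.364. Sdha was at −0.177 with median centring, with or without library type. With the muscle score they were Mfn2 −0.025, Yme1l1 0.276, Pink1 0.526, Spire1 0.411 and Sdha −0.203, with Msto1 at −0.014 and Mtfp1 at 1.591 without a change of sign, and within the satellite-low libraries Yme1l1 0.058 and Pink1 0.159.

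In the diet comparison, with median centring, with or without library type, Opa1 was at −0.214, Mfn2 −0.290, Oma1 −0.139, Yme1l1 −0.125, Dnm1l −0.207, Fis1 −0.010, Mff −0.198 and Pink1 −0.215. With quantile normalisation Opa1 was at −0.059, Mfn2 −0.182, Oma1 −0.122, Yme1l1 −0.040, Dnm1l −0.191, Mff −0.008 and Pink1 −0.024. With the autosomal sum Opa1 was at −0.009, Mfn2 −0.086 and Pink1 −0.012, and without mitochondrial genes, rRNA genes and Ucp1 Opa1 was at −0.023, Mfn2 −0.099, Dnm1l −0.004, Mff −0.006 and Pink1 −0.026. With the muscle score Mfn1 was at 0.224, Oma1 −0.186, Yme1l1 −0.059, Fis1 −0.298, Mff −0.294, Pink1 −0.463, Minos1 0.012 and Map1lc3a −0.057, and without a change of sign Opa1 at 0.024, Dnm1l 0.347, Spire1 −0.803, Gabarapl1 −0.976, Kif1b −0.171 and Sdha −0.014. Mfn2 was at −0.126 within the satellite-high libraries and Mfn1 at 0.115 within the satellite-low ones.

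Leaving out each library in turn, the cold values ran from −0.097 to 0.090 for Yme1l1, −0.298 to 0.184 for Pink1, −0.228 to 0.115 for Spire1, −0.505 to 0.039 for Park2 and −0.300 to 0.460 for Sdha. Without a change of sign they ran from 0.157 to 0.665 for Bnip3, 0.265 to 0.731 for Mfn2, 0.223 to 0.535 for Oma1, 0.491 to 1.286 for Vdac1 and −0.279 to −0.124 for the ratio of Mff to Fis1. The diet values ran from −0.402 to 0.531 for Mfn2, −0.161 to 0.153 for Mfn1, −0.051 to 0.482 for Oma1, −0.163 to 0.853 for Fis1, −0.128 to 0.441 for Mff, −0.233 to 0.512 for Pink1 and −0.184 to 0.075 for Kif1b, and without a change of sign from 0.066 to 0.394 for Yme1l1, 0.022 to 0.274 for Dnm1l, 0.084 to 0.197 for Opa1, −0.849 to −0.239 for Gabarapl1, 0.353 to 1.122 for Map1lc3a, −0.505 to −0.134 for Spire1, −0.343 to −0.162 for Minos1, 0.216 to 0.602 for Cs and −0.526 to −0.087 for Sdha. Where a group is left with 1 library, that library is assumed to vary like the others.

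Gabarapl1 in the cold lost its call in limma without a filter (adjusted p = 0.234) and without an intensity trend (0.0734), where its log2 difference was still 1.715. It also did so with quantile normalisation (1.194, adjusted p = 0.0511), with the autosomal sum (1.283, 0.149), with the muscle score (2.133, 0.184), and without mitochondrial genes, rRNA genes and Ucp1 (1.277, 0.152). Pairing by replicate number was not possible because the cold groups share no replicate number and the diet groups share only number 6. Library type as a covariate pairs the libraries by a property seen in the data, and the calls it changed are given above. With 2 libraries per group, the spread between libraries and not the fragment depth limits what can be detected.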
